A study of Populus tremula x Populus alba with 20 samples.

Results

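The genes described here had abundant transcripts in apical buds of hybrid poplar after 8 weeks of short days and only a small fraction of that level after 2 further weeks in the cold. Levels are given as CPM, the reads counted for a gene as a share of all counted reads of the library, on a scale that sums to the same total in every library. Of the 31823 genes listed, 4931 had a mean of at least 50 CPM over the 10 short-day libraries. In 236 of these, the mean over the 10 chilled libraries was at least 0.5 CPM and at most 0.25 of the short-day mean. The ranges of the overexpressors and the wild type overlapped after chilling in 198 of the 236, and the 150 with the smallest ratio of chilled to short-day mean are the members described here. The 38 genes without such an overlap, 30 with every overexpressor library above the wild type and 8 below it, and the 48 with larger ratios are not members. Both the drop in the cold and the closeness of overexpressors and wild type after chilling were therefore used to choose the members, and both are given as descriptions without a test.

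All plants were the hybrid Populus tremula x Populus alba, INRA clone 717 1B4, raised in vitro and potted under long days. They were wild type (WT) or carried 1 of 2 transgenes that overexpress a TEMPRANILLO-like protein. TEML1_1ox and TEML1_2ox are separate lines of the first transgene (together TEML1ox), and TEML2_1ox and TEML2_2ox are separate lines of the second (TEML2ox). Buds of each genotype were harvested after 8 weeks of short days (SD8), or after 2 additional weeks of short days at 4 °C (CH2), both at ZT7. Each of the 10 groups had 2 libraries, which the labels call biological replicates. A library pooled buds of several plants, given as 3 buds in one place and 2 plants in another. At each harvest all plants, WT included, had received the same short days, and no group without short days or chilled under long days was analysed here. No group had the 2 additional weeks of short days without the cold. Chilling and these additional weeks therefore cannot be told apart, and the drop in the cold stands for both. The promoter of the transgenes was not given in the sources used here, and a line may carry features of its own beside the transgene. Library totals ran from 35779227 to 38972077 counts at SD8 and from 37327490 to 39352645 at CH2. The p-values below measure the spread between these libraries.

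In trees of temperate climates, shortening days stop growth, set the buds and bring them into dormancy. A period of cold then releases the buds from dormancy, so that they can flush when it is warm again. TEMPRANILLO proteins are known from Arabidopsis as transcription factors that repress flowering, and the series addressed their part in the release of poplar buds from dormancy. The files do not pair identifiers with gene names, so no function is given for any member. Neither the labelled tissue nor the overexpression of the transgenes could be checked for the same reason. The buds were sampled whole: fewer cells of a type and less RNA per cell cannot be told apart in such counts. CPM is not divided by gene length, so the order of members by CPM also holds their lengths.

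Together the members held 3.09 ± 0.148% of the counts at SD8 (SD, n = 10) and 0.404 ± 0.0240% at CH2 (n = 10). The SD8 libraries ranged from 2.77 to 3.31% and the CH2 libraries from 0.370 to 0.443%, so the harvests lay far apart while the genotypes differed little within each. The most counted 10 members supplied 43.0% of the members' CPM at SD8. The share was highest in TEML2_2ox replicate 2 at SD8 and in TEML1_1ox replicate 2 at CH2, and lowest at both harvests in TEML1_2ox replicate 1.

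**Figure D1:**
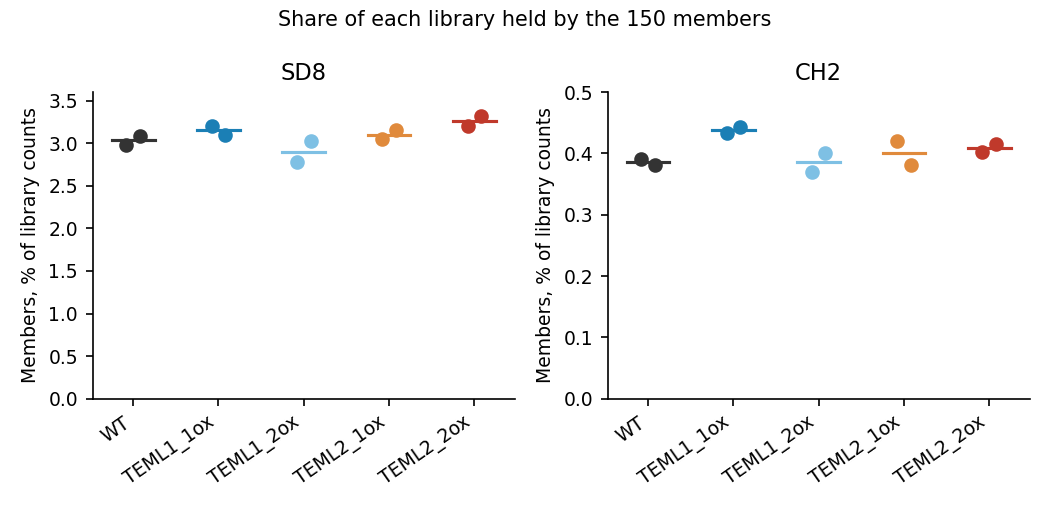
Percent of all counts of a library that fell on the 150 members, at SD8 (left) and CH2 (right), on separate vertical axes that start at 0. Points are the 2 libraries of a genotype and bars their mean; all SD8 libraries lie between 2.77 and 3.31% and all CH2 libraries between 0.370 and 0.443%.

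The members covered a wide range of levels. Their SD8 means ran from 50.1 to 3722 CPM with a median of 88.3 CPM, and their CH2 means from 1.08 to 497 CPM with a median of 11.9 CPM. At SD8, 5 members exceeded 1000 CPM, 36 exceeded 200 CPM and 81 stayed under 100 CPM. After chilling, 59 were under 10 CPM, while 17 still had at least 50 CPM. Low level after chilling was thus not common to all members, since some began so high that they remained well counted.

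The median ratio of CH2 to SD8 means was 0.137, a level 7.32-fold lower, and individual members were between 4.75-fold and 86.7-fold lower. Among all 4931 genes of at least 50 CPM at SD8 the median ratio was 0.936. The ratio was under 0.1 in 44 members, under 0.05 in 17, and 0.15 or more in 61. Beyond the last member the ratios went on without a break. The last 3 members had ratios of 0.2086, 0.2089 and 0.2106, and the next 3 genes that met the limits had 0.2107, 0.2119 and 0.2124. The 50 members with the highest SD8 means, the middle 50 and the lowest 50 had median ratios of 0.137, 0.136 and 0.138. Spearman's rho between SD8 mean and ratio was -0.02 across the members, which share their libraries. The choice of members limited both values, so these figures describe the list. They cannot show whether the size of the drop is tied to the starting level.

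**Figure D2:**
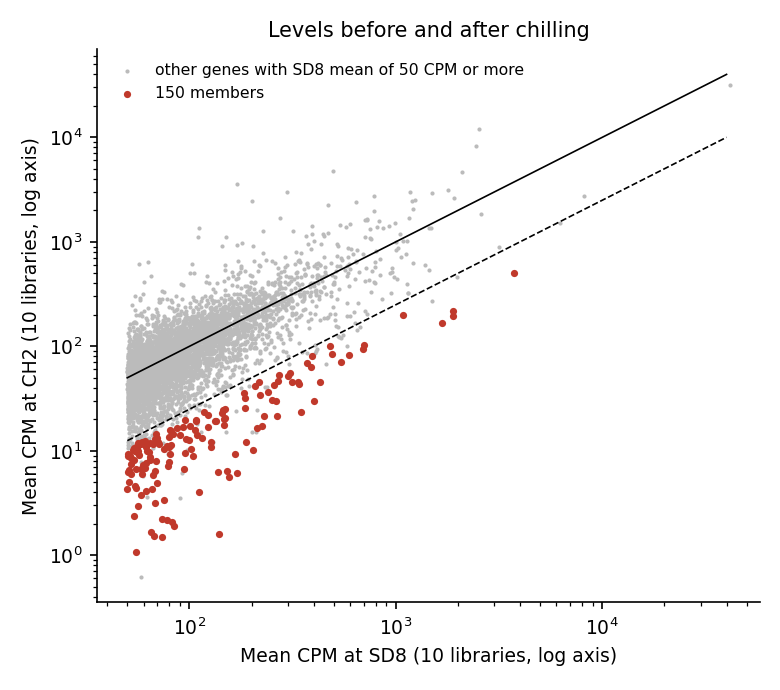
Mean CPM over the 10 CH2 libraries against mean CPM over the 10 SD8 libraries, both on log axes, for genes of at least 50 CPM at SD8; members are in red and genes with a CH2 mean of 0 are not drawn. The solid line marks equal levels and the dashed line a ratio of 0.25; the members lie under the dashed line over the whole range of SD8 levels, from 50.1 to 3722 CPM.

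The scale of the comparison moved these ratios. Scaling the libraries by TMM (trimmed mean of M values, which assumes that most genes keep their level) raised CH2 against SD8 by 0.29 on the log2 scale. The median log2 ratio of the 4931 genes was -0.10 with plain CPM and 0.19 with TMM. Under TMM the median ratio of the members was 0.166 and their largest ratio 0.256. Every member was lower at CH2 on both scales.

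The smallest ratio, 0.0115, belonged to PtXaAlbH.11G107400.v5.1, which was 86.7-fold lower at CH2. At SD8 it had 67.3 and 82.1 CPM in WT, 197 and 142 CPM in TEML1_1ox, and 127 and 83.5 CPM in TEML1_2ox. The TEML2_1ox libraries had 108 and 121 CPM and the TEML2_2ox libraries 223 and 244 CPM. At CH2 its 10 libraries lay between 0.964 and 2.57 CPM with a median of 1.47 CPM. WT had the lowest mean at both harvests, although its range met that of TEML2_1ox at CH2, and the 2 TEML1_1ox libraries were the highest at CH2. No CH2 library came near any SD8 library.

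The highest SD8 mean, 3722 ± 712 CPM (SD, n = 10), belonged to PtXaAlbH.03G180200.v5.1. WT had 4826 and 4005 CPM at SD8, TEML1_1ox 3132 and 3537 CPM, and TEML1_2ox 2429 and 4153 CPM. TEML2_1ox had 4389 and 4111 CPM and TEML2_2ox 3551 and 3090.3 CPM. The replicates of TEML1_2ox lay far apart, with the lowest library of the harvest among them. At CH2 its mean was 497 ± 86.5 CPM (SD, n = 10), with 381 CPM in the lowest library, 512 CPM as the median and 605 CPM in the highest. WT had the highest mean at SD8 and the lowest at CH2, but its libraries overlapped with those of other genotypes at both.

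Every CH2 library lay below every SD8 library in 147 of the 150 members. The same held for 35.4% of the 4931 genes, and since the ratio chose the members nothing is read from the difference. The 3 exceptions, named after their values were seen, were PtXaAlbH.10G011100.v5.1, PtXaAlbH.19G047300.v5.1 and PtXaAlbH.19G101800.v5.1. The last pair had counts in every library but varied widely between libraries of a harvest.

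PtXaAlbH.10G011100.v5.1 behaved unlike all other members, because it was listed at 0 counts in 6 SD8 and 9 CH2 libraries. Its SD8 values were 181 and 0 CPM in WT, 136 and 166 CPM in TEML1_1ox, and 0 and 193 CPM in TEML2_1ox. Both libraries of TEML1_2ox and of TEML2_2ox were at 0. At CH2 it had 15.4 CPM in WT replicate 2 and 0 in the other 9 libraries. In WT and TEML2_1ox, replicates of one group thus stood at 0 and far above it. The gene with the next identifier, PtXaAlbH.10G011200.v5.1, also a member, had between 1421 and 2311 CPM in every SD8 library. Reads of near-identical gene copies can be split or lost by the counting program, which the sources used here do not name. Whether this happened here was not tested, and the values of PtXaAlbH.10G011100.v5.1 are uncertain. It failed the filter on low counts at CH2, where 149 of the 150 members were tested.

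The drop was found in every genotype. The median ratio of the members was 0.142 in WT, 0.151 in TEML1_1ox, 0.135 in TEML1_2ox, 0.137 in TEML2_1ox and 0.127 in TEML2_2ox. The ratio was at most 0.25 within a single genotype in 144 members in WT, and in 145, 148, 146 and 148 members in the lines in the same order. The median SD8 level was 79.4 CPM in WT and 108 CPM in TEML2_2ox, with the other lines between them at 95.5, 83.8 and 81.1 CPM. At CH2 the medians were closer together, at 11.3 CPM in WT, 13.8 CPM in TEML1_1ox and 11.2, 11.5 and 11.9 CPM in the other lines. TEML2_2ox had the smallest ratio of the 5 genotypes in 66 members, while the largest ratio was in WT in 49 and in TEML1_1ox in 45. The ratio chose the members, and a gene high in TEML2_2ox at SD8 met the limits more easily. These numbers of members are a description and were not counted over the other genes.

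Within a harvest the members varied widely between libraries. The coefficient of variation over the 10 SD8 libraries had a median of 0.201 in the members and 0.0835 in the 4931 genes. Without the 2 TEML2_2ox libraries these medians were 0.171 and 0.0727. At CH2 the median was 0.179 in the members, against 0.0999 in the 21754 genes whose CH2 mean lay in the range of the members. Part of this spread lay between replicates: the median absolute log2 difference between the 2 SD8 libraries of a genotype was 0.27 in WT and 0.09 in TEML2_2ox for the members. For the 4931 genes those differences were 0.10 and 0.08. Spread between libraries of one genotype was thus wider in the members than in the 4931 genes in WT, and close to theirs in TEML2_2ox. Its source, and whether the choice of members favoured variable genes, was not tested. This spread limits what the comparisons of lines can show.

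Single libraries stood out within the harvests. At SD8, WT replicate 1 was the lowest library in 66 members, and its median deviation from the harvest mean of each member was -0.24 on the log2 scale. WT replicate 2 was the lowest in 8 members, with a median deviation of -0.01. A WT library was the lowest in 49.3% of the members and in 15.9% of the 4931 genes. The highest library at SD8 was a TEML2_2ox library in 46.7% of the members and in 36.1% of the 4931 genes. The choice of members favours genes low in WT or high in TEML2_2ox at SD8, so nothing is read from these differences in share. At CH2 the highest library was a TEML1_1ox library in 63.3% of the members and in 26.2% of the 4931 genes. The choice also used the CH2 means and the overlap with WT, so this is a description too.

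The first comparison asked how the overexpressors differed from WT before chilling, in a contrast that the choice of the members used only through the mean over all libraries. Each line was compared with WT by edgeR's quasi-likelihood test on all 26947 genes that passed the filter, with an adjusted p under 0.05 as the threshold. In TEML1_1ox, 4 of the 150 members rose and none fell, against 0.260% of all genes called, 0.186% higher and 0.0742% lower. In TEML1_2ox, 1 member fell, where 0.119% of all genes were called, 0.0482% higher and 0.0705% lower. In TEML2_1ox, 1 member rose, where 0.122% of all genes were called, 0.0854% higher and 0.0371% lower. In these 3 lines nearly all members therefore failed the test, although their median log2 fold changes were 0.26, 0.12 and 0.11 and those of all genes were within 0.01 of 0. Members with a value above 0 numbered 114, 104 and 100 of 150. In 150 members chosen by the same limits without the TEML2_2ox libraries, the medians were 0.16, 0.09 and 0.10. Most libraries in the SD8 mean that chose the members were of overexpressors. A gene higher in these than in WT therefore met the limits more easily. These comparisons share the WT libraries, of which replicate 1 was low in the members.

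The small counts depended on single libraries and on the tool. Counts from fits without a library or with another tool are given, here and below, without the share of all genes called. They do not show whether members gained or lost calls more than other genes did. For TEML1_1ox the count was 1 without TEML1_1ox replicate 1, without either TEML2_2ox library or without WT replicate 1. It was 25 without either TEML1_2ox library and 33 without WT replicate 2. For TEML1_2ox it was 0 without that line's replicate 1, 44 without its replicate 2 and 2 without WT replicate 2. For TEML2_1ox it was 3 without either TEML1_2ox library, 1 without WT replicate 2, and 0 when any other SD8 library was left out. DESeq2 called 32, 19 and 6 members in the 3 lines.

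In TEML1_1ox the member PtXaAlbH.09G061100.v5.1 had 251 and 113 CPM, against 39.6 and 43.4 CPM in WT. The groups did not overlap, and both TEML2_2ox libraries, at 233 and 219 CPM, were also far above WT. Its log2 fold change was 2.16 ± 0.30 (SE) with an adjusted p of 0.0203 by edgeR. The adjusted p rose to 0.0819 and 0.0812 without TEML2_2ox replicates 1 and 2 and to 0.160 without WT replicate 1. PtXaAlbH.11G107400.v5.1, described above, rose in TEML1_1ox by 1.21 ± 0.20 (adjusted p = 0.0434, edgeR). That call was lost without TEML1_1ox replicate 1, WT replicate 1, or any of the 4 TEML2ox libraries, with an adjusted p of up to 0.412.

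The member that fell in TEML1_2ox was PtXaAlbH.01G285400.v5.1, with 73.0 and 71.2 CPM there and 155 and 130.2 CPM in WT. All 8 overexpressor libraries were below both WT libraries, the highest at 116 CPM. Its log2 fold change was -0.93 ± 0.11 with an adjusted p of 0.0122 by edgeR, and without TEML1_2ox replicate 1 the adjusted p was 0.0517. The member that rose in TEML2_1ox was PtXaAlbH.01G350700.v5.1, with 461 and 476 CPM there and 277 and 341 CPM in WT. TEML1_1ox was higher still, at 518 and 535 CPM, while TEML1_2ox and TEML2_2ox stayed between 311 and 337 CPM, within the range of WT. The log2 fold change in TEML2_1ox was 0.68 ± 0.11 with an adjusted p of 0.0485 by edgeR. The call was lost without either TEML1_1ox, TEML2_1ox or TEML2_2ox library or without WT replicate 1, and the adjusted p reached 0.465.

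**Figure D3:**
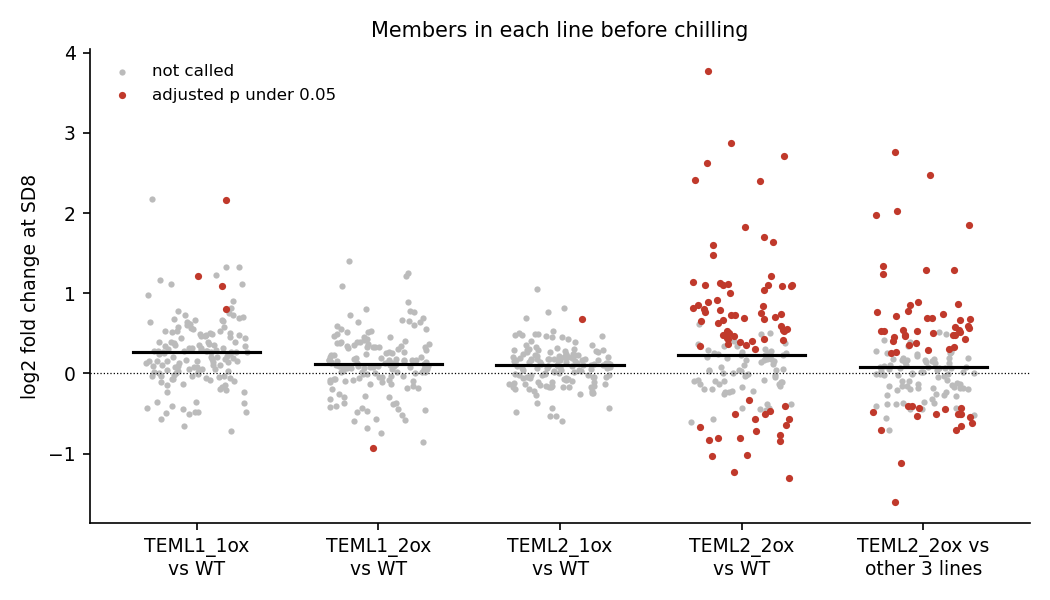
log2 fold changes of the members at SD8, for each line against WT and, on the right, for TEML2_2ox against the mean of the other 3 overexpressor lines; each point is a member, red points have an adjusted p under 0.05 and black bars are medians. Red points number 4, 1, 1, 78 and 62 from left to right; PtXaAlbH.10G011100.v5.1, at 0 counts in some of these groups, is not drawn where its value lies beyond 5.

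TEML2_2ox differed from WT at SD8 in 78 of the 150 members, of which 59 rose and 19 fell. Of all genes tested, 23.6% were called, 12.9% higher and 10.7% lower, and of the 4931 abundant genes 28.8% were called, 519 higher and 901 lower. The median log2 fold change of the members was 0.24 and that of the abundant genes -0.05. The share called among the members was 52.0%, so many genes differed in this line and the members were among those called often. TEML2_2ox entered the means that chose the members, so a gene high in this line at SD8 met the limits more easily. In 150 members chosen by the same limits from the other 16 libraries, 131 of them shared, 71 were called, 44 higher and 27 lower, and the median was 0.05.

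The 78 calls fell to 51 without TEML2_2ox replicate 1 (47 higher and 4 lower), to 39 without its replicate 2 (34 and 5) and to 46 without WT replicate 1 (34 and 12). The higher calls outnumbered the lower ones in each of these fits, but the choice of members favours genes high in TEML2_2ox at SD8. Nothing is therefore read from the balance of these calls. These counts come from a single line, so the transgene TEML2 and other features of the line cannot be told apart.

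Against the mean of the other 3 overexpressor lines at SD8, 62 members differed in TEML2_2ox, 44 higher and 18 lower, where 20.2% of all genes were called, 11.8% higher and 8.42% lower. Of the 4931 abundant genes 24.4% were called, 363 higher and 839 lower. Among the 150 members chosen without TEML2_2ox libraries 55 were called, 31 higher and 24 lower. No WT library enters this contrast, apart from its share in the estimate of spread. Of the members higher than WT, 71.2% were also higher than the other lines, and these made up 95.5% of the latter. Of the lower members the shares were 52.6% and 55.6%; both comparisons use the same TEML2_2ox libraries. Without TEML2_2ox replicate 1 the count was 18, all higher, and without its replicate 2 it was 28, 20 higher and 8 lower.

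The largest rise among the called members in TEML2_2ox was in PtXaAlbH.19G047300.v5.1, with 713 and 744 CPM at SD8. WT had 23.0 and 80.7 CPM, TEML1_1ox 342 and 117 CPM, TEML1_2ox 129.5 and 38.1 CPM, and TEML2_1ox 45.6 and 60.0 CPM. TEML2_2ox lay above all other libraries, but replicates of WT, TEML1_1ox and TEML1_2ox each differed severalfold among themselves. The log2 fold change was 3.77 ± 0.70 (SE) against WT and 2.76 ± 0.46 against the other lines. Over the 16 libraries without TEML2_2ox its means were 105 CPM at SD8 and 24.1 CPM at CH2, a ratio of 0.230, past the 150th ratio of 0.228 in the list chosen without that line. It is thus a member only through the TEML2_2ox libraries, and its differences in that line are a description. At CH2 the TEML2_2ox libraries had 8.52 and 14.1 CPM, inside the range of the other libraries, which ran from 3.23 CPM in TEML2_1ox to 69.3 CPM in TEML1_1ox.

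PtXaAlbH.03G168200.v5.1 showed the same order with tighter replicates. TEML2_2ox had 154 and 164 CPM at SD8, while the other libraries lay between 11.2 and 64.0 CPM. WT had 15.8 and 26.5 CPM, and TEML1_1ox, the next line, had 64.0 and 39.4 CPM. The log2 fold change was 2.87 ± 0.35 against WT and 2.47 ± 0.25 against the other lines. At CH2 all 10 libraries lay between 1.86 and 2.89 CPM, and TEML2_2ox, at 2.55 and 2.16 CPM, was in the middle of them. The CH2 mean was 2.38 ± 0.381 CPM (SD, n = 10), and TEML2_2ox did not stand apart at that harvest. Its SD8 mean of 54.1 CPM passed the limit of 50 CPM only with the TEML2_2ox libraries included, as its 8 other SD8 libraries averaged 27.9 CPM, so these differences are a description too.

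Members that fell in TEML2_2ox moved less. PtXaAlbH.01G329100.v5.1 had 39.2 and 41.1 CPM there at SD8 and 72.9 and 111 CPM in WT. TEML1_2ox was the highest line at 323 and 139.6 CPM, and the other lines had between 72.1 and 83.2 CPM. Its log2 fold change was -1.23 ± 0.32 against WT (adjusted p = 0.0183, edgeR) and -1.60 ± 0.28 against the other lines (adjusted p = 0.00344). The call against WT was lost without either TEML2_2ox library or WT replicate 2, with an adjusted p of up to 0.122, and that against the other lines without TEML2_2ox replicate 1 (0.0722).

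PtXaAlbH.03G086100.v5.1 had 52.3 and 58.6 CPM in TEML2_2ox at SD8, below all other libraries, and 115 and 150.1 CPM in WT. TEML1_1ox was the closest line, at 73.0 and 91.1 CPM. The log2 fold change was -1.30 ± 0.22 against WT (adjusted p = 0.00288, edgeR) and -1.11 ± 0.19 against the other lines (adjusted p = 0.00287). Without TEML2_2ox replicate 1 the adjusted p against the other lines was 0.0711.

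**Figure D4:**
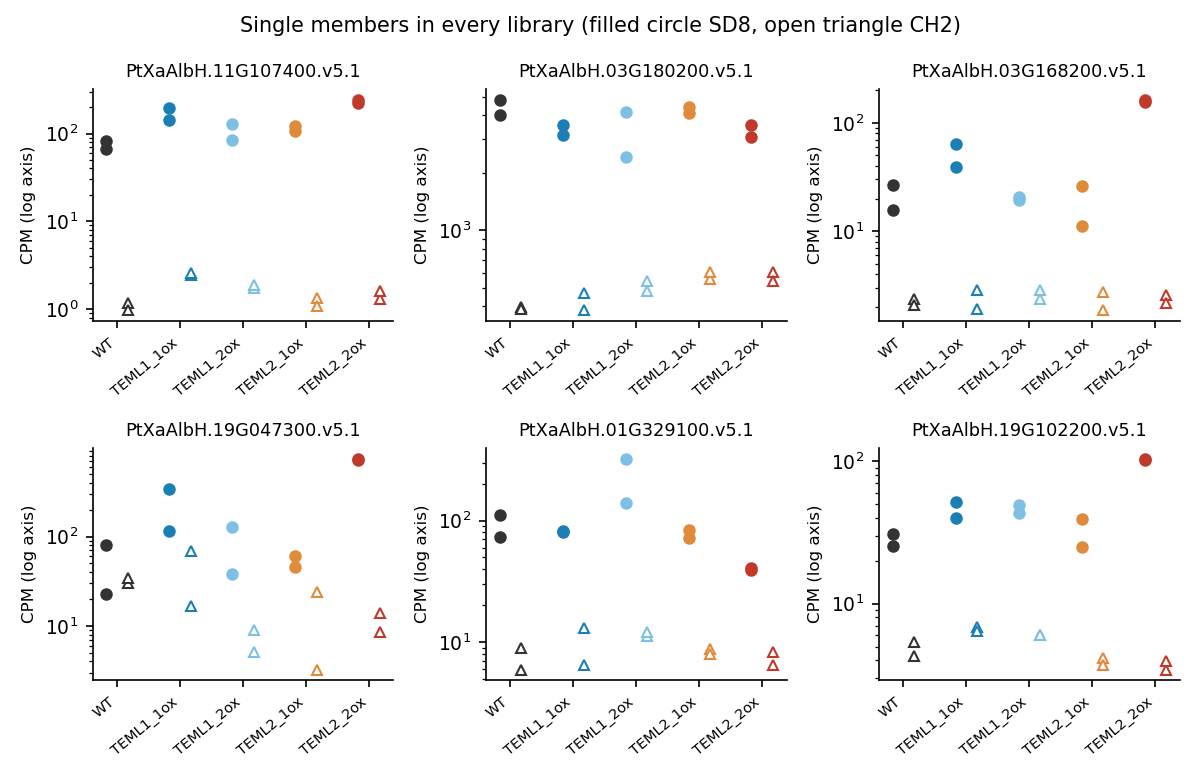
CPM of 6 members in all 20 libraries on log axes that differ between panels; filled circles are SD8 libraries, open triangles CH2 libraries, and colours mark the genotypes. PtXaAlbH.03G168200.v5.1 stands at 154 and 164 CPM in TEML2_2ox at SD8, above every other library, and falls to between 1.86 and 2.89 CPM in all genotypes at CH2.

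After chilling the difference between TEML2_2ox and the other 3 lines was no longer detected in any member. By edgeR none of the 149 members tested was called at CH2, where 0.0311% of all genes were called, 0.0156% higher and 0.0156% lower. At SD8 the same contrast had called 20.2% of all genes, so the loss of calls was not particular to the members. With so small a share over all genes, nothing about the members is read from their count. At an unadjusted p under 0.05 there were 12 members, and DESeq2 called 1. The smallest p belonged to PtXaAlbH.15G053900.v5.1, which did not pass the test. TEML2_2ox had 8.89 and 8.49 CPM there, below the other 6 overexpressor libraries at 9.61 to 14.1 CPM, with a log2 fold change of -0.49 ± 0.12 and an adjusted p of 0.392 (edgeR). At SD8 the same member had 65.2 and 64.1 CPM in TEML2_2ox and 63.6 to 73.9 CPM in the other lines.

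The 44 members higher in TEML2_2ox than in the other lines at SD8 began at different levels and ended at similar ones. Their median at SD8 was 117 CPM in TEML2_2ox and 64.8 CPM in the other lines, and at CH2 it was 10.3 and 10.5 CPM. The median ratio was accordingly 0.0756 in TEML2_2ox and 0.142 in the other lines. The 18 lower members mirrored this, with 81.6 and 126 CPM at SD8, 17.4 and 18.6 CPM at CH2, and ratios of 0.200 and 0.134. The absolute log2 difference was smaller at CH2 than at SD8 in all 44 and in all 18. Both sets were picked by their SD8 difference, so these counts are a description.

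**Figure D5:**
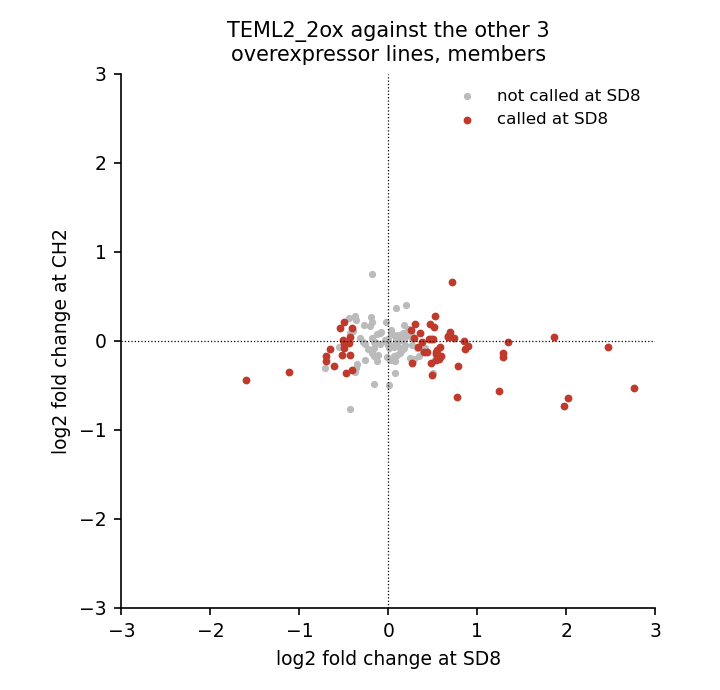
log2 fold change of TEML2_2ox against the mean of the other 3 overexpressor lines at CH2 (vertical) and SD8 (horizontal) for the 149 members tested at both harvests, on equal axes; red points were called at SD8. Red points spread from -1.60 to 2.76 along the SD8 axis and from -0.74 to 0.66 along the CH2 axis.

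Whether chilling changed TEML2_2ox differently was tested directly, as the difference between its log2 change from SD8 to CH2 and the mean change of the other 3 lines in a fit of all 20 libraries. This difference passed edgeR's test in 27 of the 150 members, where 7.47% of all genes were called. In 22 the drop was stronger in TEML2_2ox (3.97% of all genes changed in that direction) and in 5 it was weaker (3.50%). Among the 4931 abundant genes 11.9% were called, with 395 weaker or more raised and 190 stronger, the opposite balance to that of the members. All 22 members with a stronger drop were among the 44 that had been higher at SD8. Both tests hold the SD8 difference between the same libraries, so this overlap is a description. Among the 150 members chosen without TEML2_2ox libraries 19 were called, 10 stronger and 9 weaker, so the balance moved with the inclusion of this line in the choice. The count was 2 without TEML2_2ox replicate 1 at CH2, 10 without its replicate 2, and 6 and 10 without replicates 1 and 2 of that line at SD8. It was 17 without TEML1_1ox replicate 2 at SD8 or TEML1_2ox replicate 2 at CH2, and the weaker drops were called in at most 1 member in all 6 of these fits.

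PtXaAlbH.01G164300.v5.1 was called for a stronger drop in TEML2_2ox, and its SD8 mean without that line, 50.0 CPM, just met the limit. TEML2_2ox went from 232 and 213 CPM at SD8 to 1.12 and 1.42 CPM at CH2. TEML1_1ox went from 95.0 and 53.7 CPM to 2.10 and 4.08 CPM, TEML1_2ox from 65.3 and 37.3 CPM to 1.34 and 2.52 CPM, and TEML2_1ox from 40.2 and 38.2 CPM to 1.66 and 1.40 CPM. WT had 25.1 and 45.2 CPM at SD8 and 1.79 and 1.82 CPM at CH2. TEML2_2ox was the highest line before chilling and among the lowest after it. The difference in log2 change was -2.71 ± 0.51 with an adjusted p of 0.00623 by edgeR, and without TEML2_2ox replicate 1 at CH2 the adjusted p was 0.0672.

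This member has a near copy of its profile close by in the list of identifiers. PtXaAlbH.01G164000.v5.1, 3 places away, a member only through TEML2_2ox and named after its values were seen, had 0.815 to 0.896 times its CPM in every SD8 library and 0.686 to 0.941 times at CH2. In the sorted identifiers, 6 pairs of members lay no more than 3 places apart, which together hold 12 members. In the 3 pairs with the steadiest quotient, the quotient of the 2 members at SD8 stayed between 0.616 and 0.708, between 0.815 and 0.896 and between 0.700 and 0.855. Whether these pairs share reads was not tested, and they are counted here as separate members.

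Among the members called, PtXaAlbH.19G047300.v5.1 had the largest difference in the drop, -3.29 ± 0.96. It is a member only through TEML2_2ox, so this value is a description, and its call was lost in 13 of the 20 fits without 1 library. Of the 5 members called for a weaker drop in TEML2_2ox than in the other lines, those with the largest difference were PtXaAlbH.05G093000.v5.1 and PtXaAlbH.06G095400.v5.1. PtXaAlbH.05G093000.v5.1 had 320 and 330 CPM in TEML2_2ox at SD8 and 58.1 and 49.7 CPM at CH2, while the other lines ran from 294 to 513 CPM and from 36.7 to 53.4 CPM. Its difference was 0.70 ± 0.19 with an adjusted p of 0.0372 by edgeR. PtXaAlbH.06G095400.v5.1 had 497 and 513 CPM at SD8 and 107 and 101 CPM at CH2 in TEML2_2ox, with the other lines from 472 to 869 CPM and from 77.8 to 105 CPM. Its difference was 0.69 ± 0.20 with an adjusted p of 0.0455 by edgeR. The ranges of TEML2_2ox and the other lines overlapped in both members, and both calls were lost without any 1 of the 4 TEML2_2ox libraries.

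At CH2 the overexpressors lay close to WT, which the choice of members required. The log2 ratio of overexpressor to WT means had a median of 0.12, with quartiles of -0.07 and 0.23. The overexpressor mean was the higher in 102 members, and 141 members were within 1.5-fold of WT. TEML1_1ox stood highest among the lines at this harvest. A comparison of that line with the mean of the other 3 overexpressor lines was added after its level had been seen. The line was thus picked by the same values that the comparison uses, so its counts and p-values below are a description.

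In TEML1_1ox, 18 of the 149 members tested at CH2 differed from the other 3 lines by edgeR's test, 13 higher and 5 lower, where 2.09% of all genes were called, 1.33% higher and 0.763% lower. Of the abundant genes 4.12% were called. The median log2 fold change of the members was 0.25 and that of the abundant genes -0.02, and 120 members had a value above 0. The count was unstable: it was 2 and 8 without TEML1_1ox replicates 1 and 2, 1 without TEML1_2ox replicate 1, and 36 and 8 without TEML2_1ox replicates 1 and 2. Without TEML2_2ox replicates 1 and 2 it was 0 and 2, and without WT replicates 1 and 2 it was 1 and 2.

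Among these members PtXaAlbH.19G101800.v5.1 had 6.43 and 18.1 CPM in TEML1_1ox at CH2, with 2.74 to 6.27 CPM in the other lines. The lower TEML1_1ox library was barely above the others, and without replicate 2 the log2 fold change fell from 1.59 ± 0.35 (adjusted p = 0.0449, edgeR) to 0.60 (adjusted p = 0.372). PtXaAlbH.09G110600.v5.1 had 103 and 58.8 CPM in TEML1_1ox and 20.5 to 46.2 CPM in the other lines, a log2 fold change of 1.15 ± 0.24 (adjusted p = 0.0433, edgeR), which was 0.75 (adjusted p = 0.207) without replicate 1. The lower members differed little in size. PtXaAlbH.13G010300.v5.1 had 60.9 and 54.2 CPM in TEML1_1ox against 66.2 to 82.2 CPM in the other lines (log2 fold change -0.40 ± 0.07, adjusted p = 0.0302, edgeR). PtXaAlbH.03G180200.v5.1, the member with the highest SD8 mean, had 472 and 381 CPM against 482 to 605 CPM (-0.39 ± 0.08, adjusted p = 0.0415, edgeR). Each of these 4 calls was lost in at least 6 of the 10 fits without 1 library.

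The 2 transgenes were also compared at CH2, with the 4 libraries of each pooled over its lines. Of the 149 members tested, 1 was called, where 0.101% of all genes were called, 0.0506% higher and 0.0506% lower. This was PtXaAlbH.19G102200.v5.1, with 6.90 and 6.41 CPM in TEML1_1ox and 5.98 and 6.03 CPM in TEML1_2ox. TEML2_1ox had 4.17 and 3.69 CPM and TEML2_2ox 3.44 and 3.94 CPM, and WT, at 5.37 and 4.29 CPM, fell between the transgenes. The log2 fold change was 0.74 ± 0.11 with an adjusted p of 0.0320 by edgeR. The count was 0 without any 1 of 9 of the 10 libraries and 5 without TEML1_2ox replicate 1. At SD8 the order was different, with 102 and 104 CPM in TEML2_2ox and 24.9 to 51.8 CPM in the other 8 libraries. The mean of these 8 libraries, 38.0 CPM, is under the limit of 50 CPM. PtXaAlbH.19G102200.v5.1 is thus a member only through TEML2_2ox, whose CH2 libraries enter this comparison, so its difference is a description. Among the members chosen without TEML2_2ox libraries, 0 of the 149 tested were called. Lines of 1 transgene shared their fit as if independent, so these p-values take no account of differences between lines.

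Members also differed in how they varied across the 10 SD8 libraries. Using PtXaAlbH.03G168200.v5.1, which was high in TEML2_2ox, as a guide chosen after its values were seen, 49 of the other 149 members (32.9%) had a Pearson r of at least 0.8 with it on log2(CPM + 0.5). Among the 4781 abundant genes that are not members, 528 did so (11%). The guide is a member only through TEML2_2ox, and the choice of members favours genes high in that line at SD8, so nothing is read from the difference. There were 47 members with an r below 0. With PtXaAlbH.03G180200.v5.1, 9 members (6.04%) reached that r, against 7.43% of the other abundant genes, and 105 members had an r below 0. The share of members that reached that r was near the share of the other abundant genes, so nothing is read from it. For neither guide were the other abundant genes with an r below 0 counted. These correlations describe 10 libraries that share lines and have no p.

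The identifiers carry a number before the letter G, from 01 to 19, over which the members were spread unevenly. Members occurred under all 19 numbers, most often under 01, with 23 members, or 15.3% against 11.9% of the 4931 abundant genes. Under 19 there were 10 members (6.67% against 2.66%), and under 18 there was 1 (0.667% against 3.77%). No test was made of this spread.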

How the data were processed

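Polyadenylated RNA of apical buds was sequenced in 20 libraries, 2 for each of 5 genotypes at 2 harvests. Per the labels' protocols, a stranded mRNA kit was used on CTAB-extracted RNA. The authors deposited raw read counts by gene in 1 table for each harvest. The submitters' processing notes name HISAT2, with no version. Not given in the sources used here are the counting program, its use of strand and the genome build. The column of WT replicate 1 at SD8 carries an extra digit in its name and matched no other sample. The labels differ on the weeks of long days and the buds or plants per replicate.

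The members and lists were chosen with earlier results of these data known. CPM used column totals. Genes passing filterByExpr were compared with edgeR 4.0.16 in R 4.3.3 (TMM, quasi-likelihood F test, Benjamini-Hochberg adjustment over all genes tested, threshold 0.05). Lines were fitted as 5 groups of 2 libraries per harvest, transgenes at CH2 as 3 groups, and the difference in the drop as 10 groups. The SE is the absolute log2 fold change over the square root of F, an approximation. Without annotation, the named members were, for chilling, the smallest ratio and the highest SD8 mean, and for each comparison up to 2 higher and 2 lower members with the largest change among those called without overlap between the libraries compared. For the difference in the drop the overlap condition was not applied. The edgeR fits were tested on simulated data. Lists by gene name were void. Alternatives were DESeq2 1.42.0, RLE scaling, a fit with no low-count filter, the replicate number as a block, leaving out each library, a fit of all 20 libraries, and members chosen without TEML2_2ox or with TMM-scaled totals.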

Additional observations from a re-analysis of the deposited data

Results flagged for a closer look

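Dixon's criterion at 95% was applied to 72 sets of 4 libraries, each from the lines of 1 transgene at 1 harvest. The values were the CPM of a named member or the members' share of the counts. In 3 sets the gap of a library to the next was too large a part of the range for 4 samples. Chance flags about 1 in 20 sets drawn from 1 population, but each set here joined separate lines, so that rate may not hold. The 3 flags all fell on TEML1_1ox libraries. At CH2, replicate 2 had 163 CPM of PtXaAlbH.01G350700.v5.1, while the other TEML1ox libraries had 62.4 to 75.02 CPM. The same library had 18.1 CPM of PtXaAlbH.19G101800.v5.1, with 4.95 to 6.43 CPM in the other 3. At SD8, replicate 1 had 73.9 CPM of PtXaAlbH.15G053900.v5.1, with 63.6 to 65.0 CPM in the others.

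The drop in the cold differed between TEML2_2ox and the mean of the other 3 overexpressor lines, by a test of that difference, in 27 of the 150 members. Of all genes tested 7.47% were called, and of the 4931 abundant genes 11.9%. Among the members chosen without TEML2_2ox libraries 19 were called, 10 with a stronger drop and 9 with a weaker one. Of the members named for it, the difference in log2 change was 0.70 in PtXaAlbH.05G093000.v5.1, 0.69 in PtXaAlbH.06G095400.v5.1, -3.29 in PtXaAlbH.19G047300.v5.1 and -2.71 in PtXaAlbH.01G164300.v5.1. PtXaAlbH.19G047300.v5.1 is a member only through TEML2_2ox, so its value is a description.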

How the results depend on the processing

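The list itself kept 130 to 149 of its 150 members when 1 library was left out, 131 without the 4 TEML2_2ox libraries and 122 with TMM-scaled totals, under which 123 genes met the limits. Counts of members called, with 1 library left out, ran from 1 to 33 for TEML1_1ox against WT at SD8, 0 to 44 for TEML1_2ox, 0 to 3 for TEML2_1ox and 39 to 92 for TEML2_2ox. They ran from 18 to 78 for TEML2_2ox against the other lines at SD8, 0 to 0 at CH2, 0 to 36 for TEML1_1ox at CH2, 0 to 5 between the transgenes and 2 to 40 for the difference in the drop. A library left out leaves a group with 1 sample, which is assumed to vary like the other groups. The counts of members called in this section stand without the share of all genes called in the same fit. DESeq2 called 32, 19 and 6 members in TEML1_1ox, TEML1_2ox and TEML2_1ox at SD8, 1 in TEML2_2ox and 30 in TEML1_1ox at CH2, and 16 between the transgenes. The fit of all 20 libraries called 10, 4 and 0 members in the first 3 lines at SD8, 5 in TEML1_1ox at CH2 and 0 between the transgenes. RLE scaling and no low-count filter each called 2 in TEML1_2ox at SD8. The list chosen without TEML2_2ox had 0 calls between the transgenes. With the replicate number as a block the counts were 0 for TEML2_1ox at SD8, 4 for TEML1_1ox at CH2 and 0 between the transgenes; the numbers were not taken to pair the libraries, since the deviations of same-numbered libraries correlated from -0.30 to 0.25 at SD8 and from -0.29 to 0.37 at CH2, with 1 and 4 of 10 pairs of groups over 0.1. The cause of these changes was not tested. No named member reversed its direction in the settings run, and of their values under these settings 253 kept their side of the threshold and 113 lost their call.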
